A study of Homo sapiens with 12 samples.

Results

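The 40 genes described here belong to a pair of linked stress programmes, the unfolded protein response (UPR) of the endoplasmic reticulum (ER) and the amino acid response driven by the transcription factor ATF4. They were chosen by name, not by a cut on a measured value, from the 55243 uniquely named genes of the deposited table. The choice was made with earlier results of these data known. The 20 UPR genes were HSPA5, HSP90B1, DNAJB9, DNAJC3, DNAJB11, PDIA3, PDIA4, PDIA6, CALR, CANX, HYOU1, SDF2L1, MANF, CRELD2, HERPUD1, XBP1, ATF6, ERN1, EDEM1 and SEL1L. The 20 genes of the ATF4 response were ATF4, ATF3, DDIT3, DDIT4, TRIB3, CHAC1, SESN2, PPP1R15A, ASNS, PSAT1, PHGDH, PSPH, SHMT2, MTHFD2, ALDH1L2, CEBPB, SLC7A11, SLC7A5, SLC3A2 and SLC38A2. All 40 were in the table and 39 passed the filter on low values. The exception was CHAC1, an enzyme that degrades glutathione, which was listed at 0 in 8 of 12 libraries and reached at most 1.05 TPM (relative transcript abundance, scaled by transcript length and by library).

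RNA had been sequenced from HT1080 cells, a long-established line grown from a human fibrosarcoma whose NRAS carries the Q61K mutation, in 4 groups of 3 libraries, for a study of interferon-alpha after loss of mutant NRAS. The groups were siRNA against NRAS Q61K (siQ61K) with poly(dA:dT), control siRNA (siNC) with poly(dA:dT), siQ61K with DMSO, and siNC with DMSO. Poly(dA:dT) is a synthetic double-stranded DNA that sets off DNA sensing in the cytosol. All groups share the 1 cell line and its mutant NRAS; the labels give no siRNA sequence, dose or time, and none ties the 3 libraries of a group to separate cultures.

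Misfolded protein in the ER is sensed by ERN1 (IRE1), ATF6 and the kinase EIF2AK3 (PERK). ERN1 splices the XBP1 mRNA and ATF6 is cut to free a transcription factor, and both raise ER chaperones and degradation genes, while EIF2AK3 and other kinases that answer to amino acid shortage or double-stranded RNA phosphorylate the translation factor eIF2. That slows translation but favours translation of ATF4, which with C/EBP partners switches on genes for making and importing amino acids. Splicing, cleavage and translation are not read by gene-level TPM, so the values below are mRNA levels and not activities of XBP1, ATF6, ERN1 or ATF4.

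Part of the promoters of the UPR and ATF4-response genes carried a searched motif, and the shares differed between the sets. RefSeq promoter windows on GRCh38.p14, from 250 bases before to 50 bases after a start site, were matched by symbol for 35 of the 40 genes (not PDIA3, PSPH, SHMT2, ALDH1L2 or SLC7A11) and searched on both strands. The ER stress response element, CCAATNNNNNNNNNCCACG, is bound by ATF6 with the factor NF-Y. It was in the windows of 7 of 19 UPR genes (36.8%), namely HSPA5, HSP90B1, CALR, CANX, PDIA6, CRELD2 and XBP1, and of 0 of 16 ATF4-response genes, against 25 of 27305 genes with a window (0.0916%). The C/EBP-ATF element, TGATGNAA, is bound by ATF4 with a C/EBP partner. It was in the windows of 4 of 16 ATF4-response genes (25%), namely ASNS, ATF3, CHAC1 and SLC3A2, and of 1 of 19 UPR genes (5.26%), HERPUD1, against 1217 of 27305 genes (4.46%). The unfolded protein response element, TGACGTGG, a site for XBP1 and ATF6, was in the window of 1 UPR gene (5.26%), HYOU1, against 253 of 27305 genes (0.927%). No window held motifs that overlapped each other. A match is a description of the letters and not a measured binding site. The genes were listed as members of these responses, so the shares describe the lists and test nothing.

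The windows below are the 6 with either of the first 2 motifs whose genes had the largest interaction values, described further on. The window of ASNS, chosen after its values were seen, is added as the gene that fell most in siQ61K cells with DMSO. They are written 5′ to 3′ in the direction of the gene, with the motif in capitals and, where the motif lies on the other strand, as its reverse complement. They lie at chr9:125241294-125241593 (minus strand) for HSPA5, chr12:103930160-103930459 (plus strand) for HSP90B1, chr19:12938359-12938658 (plus strand) for CALR, chr22:49918384-49918683 (plus strand) for CRELD2, chr22:28800520-28800819 (minus strand) for XBP1, chr7:97872359-97872658 (minus strand) for ASNS and chr11:62881449-62881748 (plus strand) for SLC3A2.
HSPA5: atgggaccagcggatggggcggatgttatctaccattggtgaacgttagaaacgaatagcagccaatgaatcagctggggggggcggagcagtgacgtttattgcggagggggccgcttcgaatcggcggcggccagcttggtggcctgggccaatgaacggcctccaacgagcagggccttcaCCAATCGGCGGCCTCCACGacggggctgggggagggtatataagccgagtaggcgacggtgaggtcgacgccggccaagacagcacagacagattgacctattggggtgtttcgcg
HSP90B1: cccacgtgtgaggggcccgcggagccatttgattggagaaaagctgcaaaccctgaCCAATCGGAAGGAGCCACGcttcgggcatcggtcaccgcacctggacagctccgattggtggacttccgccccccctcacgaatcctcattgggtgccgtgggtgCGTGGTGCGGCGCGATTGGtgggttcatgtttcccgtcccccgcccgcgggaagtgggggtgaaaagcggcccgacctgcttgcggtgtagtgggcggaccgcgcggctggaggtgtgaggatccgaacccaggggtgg
CALR: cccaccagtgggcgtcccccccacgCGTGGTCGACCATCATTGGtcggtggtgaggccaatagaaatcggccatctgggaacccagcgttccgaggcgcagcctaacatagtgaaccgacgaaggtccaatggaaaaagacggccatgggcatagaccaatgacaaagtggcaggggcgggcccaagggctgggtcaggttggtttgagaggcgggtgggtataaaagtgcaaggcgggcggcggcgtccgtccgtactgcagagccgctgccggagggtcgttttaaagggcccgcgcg
CRELD2: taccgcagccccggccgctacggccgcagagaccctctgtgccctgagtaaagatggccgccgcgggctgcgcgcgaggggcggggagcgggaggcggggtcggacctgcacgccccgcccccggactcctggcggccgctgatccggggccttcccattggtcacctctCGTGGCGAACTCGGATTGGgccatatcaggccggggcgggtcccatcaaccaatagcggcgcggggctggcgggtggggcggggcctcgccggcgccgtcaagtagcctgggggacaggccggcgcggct
XBP1: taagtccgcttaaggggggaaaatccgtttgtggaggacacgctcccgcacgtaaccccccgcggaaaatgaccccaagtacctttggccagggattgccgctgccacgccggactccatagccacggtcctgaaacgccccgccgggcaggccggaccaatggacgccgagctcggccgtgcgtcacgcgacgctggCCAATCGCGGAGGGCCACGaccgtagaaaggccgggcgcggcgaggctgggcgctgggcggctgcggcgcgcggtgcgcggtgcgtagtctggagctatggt
ASNS: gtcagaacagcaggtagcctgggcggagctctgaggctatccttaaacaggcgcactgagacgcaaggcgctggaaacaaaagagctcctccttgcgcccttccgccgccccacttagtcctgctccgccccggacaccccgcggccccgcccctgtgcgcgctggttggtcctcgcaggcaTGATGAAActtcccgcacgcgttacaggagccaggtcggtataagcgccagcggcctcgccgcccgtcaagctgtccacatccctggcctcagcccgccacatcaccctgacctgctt
SLC3A2: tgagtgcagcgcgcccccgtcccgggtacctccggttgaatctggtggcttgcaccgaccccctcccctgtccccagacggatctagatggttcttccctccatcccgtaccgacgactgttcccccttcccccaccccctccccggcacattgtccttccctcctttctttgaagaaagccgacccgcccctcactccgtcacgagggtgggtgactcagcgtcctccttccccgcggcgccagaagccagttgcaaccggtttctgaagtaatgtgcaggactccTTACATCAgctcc
HSP90B1 held the ER stress element on both strands, and each of the other windows held its motif 1 time. In SLC3A2 the motif lay after the start site, at positions 37 to 44, and in ASNS before it, at positions -68 to -61, where position 0 is the base that follows the 250 upstream bases.

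The knockdown was seen in total NRAS mRNA, with no overlap between siRNAs. Gene-level TPM does not tell mutant from unmutated NRAS mRNA, and effects of the siRNA on other targets were not tested. NRAS stood at 20.1, 20.3 and 23.5 TPM in siQ61K cells and 43.0, 45.9 and 51.7 TPM in siNC cells with poly(dA:dT), and at 15.5, 15.2 and 19.9 TPM in siQ61K cells and 59.6, 60.6 and 41.4 TPM in siNC cells with DMSO. Replicate libraries correlated at 0.966 to 0.984 across genes. Of the fibrosarcoma markers, VIM stood at 4730 to 7740 TPM, FN1 at 284 to 496 TPM, CD44 at 188 to 724 TPM, S100A4 at 11 to 30.5 TPM and TAGLN at 5.61 to 23.2 TPM, while THY1 stayed at or under 0.126 TPM. All tested epithelial, leukocyte, endothelial and adipocyte markers were under 1 TPM in every library, and of the melanocyte markers PMEL reached 2.16 TPM. The levels of genes followed their GC content differently from library to library. Spearman's rho between a gene's deviation from its mean and its GC content ran from -0.433 to 0.0918 in siQ61K cells with poly(dA:dT), from -0.127 to 0.271 in siNC cells with poly(dA:dT), from 0.289 to 0.513 in siQ61K cells with DMSO and from -0.486 to -0.0318 in siNC cells with DMSO. DNAJB9, DNAJB11, HYOU1, PDIA3, PDIA6 and SHMT2 share exon bases with a tested gene on the opposite strand. HSP90B1, PSPH and SLC7A5 have pseudogene copies, but such copies were not searched for and other listed genes may have them. Reads from overlapping genes or from copies may not have been told apart. Calls are also given after each library was corrected for GC content and transcript length. A call means an adjusted p under 0.05 in limma with Benjamini-Hochberg adjustment over 14722 genes, and a fold change is on the log2(TPM + 1) scale, which understates changes of low genes.

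Genes of asparagine and serine synthesis were lower in siQ61K than in siNC cells. With poly(dA:dT), 11 of the 19 tested ATF4-response genes fell and 1 rose, against 12.6% of all tested genes called lower and 8.71% called higher. With DMSO, 4 of the 19 fell and 0 rose, against 14.8% of all genes called lower and 16.6% called higher. Their median log2 fold change was -0.50 with poly(dA:dT), where the median of all genes was -0.07, and 0.09 with DMSO, where that of all genes was 0.01. The GC and length correction, described above, brought the counts of the treatments closer. They became 9 lower and 2 higher with poly(dA:dT) and 7 lower and 0 higher with DMSO. The corrected shares of all genes, called either way, were 26.9% with poly(dA:dT) and 27.5% with DMSO. With the correction the medians of the ATF4-response genes were -0.25 with poly(dA:dT) and -0.04 with DMSO, beside 0.01 and 0.00 over all genes. ASNS, PSAT1 and PHGDH fell in both comparisons, which share no library. In bulk RNA, fewer cells with a transcript and less transcript per cell cannot be told apart.

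ASNS, which makes asparagine from aspartate and glutamine, fell most with DMSO. ASNS stood at 29.2, 31.4 and 41.2 TPM in siQ61K cells with poly(dA:dT), 80.2, 83.4 and 89.8 TPM in siNC cells with poly(dA:dT), 29, 29.4 and 30.1 TPM in siQ61K cells with DMSO and 73.4, 83.7 and 80.3 TPM in siNC cells with DMSO. No siQ61K library reached the lowest siNC library, and within each siRNA the poly(dA:dT) and DMSO libraries overlapped. The log2 fold change for knockdown was -1.31 (adjusted p = 1.47e-05, SE 0.13) with poly(dA:dT) and -1.39 (adjusted p = 1.25e-05, SE 0.13) with DMSO. After the GC and length correction these values were -1.32 and -1.34. The knockdown response did not pass the test of a difference between the treatments, with an interaction of 0.09 (95% interval -0.30 to 0.47).

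PHGDH catalyses the first step of serine synthesis from a glycolytic intermediate. PHGDH stood at 55.4, 65.9 and 46.6 TPM in siQ61K cells with poly(dA:dT), 159, 142 and 151 TPM in siNC cells with poly(dA:dT), 65.8, 94.3 and 81.1 TPM in siQ61K cells with DMSO and 111, 118 and 175 TPM in siNC cells with DMSO. The siQ61K values lay below the siNC values under either treatment, and were lowest with poly(dA:dT). The log2 fold change was -1.43 (adjusted p = 0.00013, SE 0.18) with poly(dA:dT) and -0.72 (adjusted p = 0.00874, SE 0.18) with DMSO. The interaction was -0.70 (adjusted p = 0.071), short of a call. PSAT1 follows PHGDH in the pathway. PSAT1 stood at 75.8, 86.3 and 88.5 TPM in siQ61K cells with poly(dA:dT), 118, 121 and 138 TPM in siNC cells with poly(dA:dT), 69.9, 74.1 and 79.1 TPM in siQ61K cells with DMSO and 131, 128 and 116 TPM in siNC cells with DMSO. Its groups did not overlap under either treatment, and the log2 fold change was -0.59 (adjusted p = 0.00173, SE 0.10) with poly(dA:dT) and -0.74 (adjusted p = 0.000277, SE 0.10) with DMSO. PSPH, which releases serine in the last step, was not called, at -0.16 (adjusted p = 0.395) with poly(dA:dT) and 0.13 (adjusted p = 0.466) with DMSO. Of the 3 enzymes of the pathway, PHGDH and PSAT1 were thus called lower in both comparisons and PSPH in neither.

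**Figure D1:**
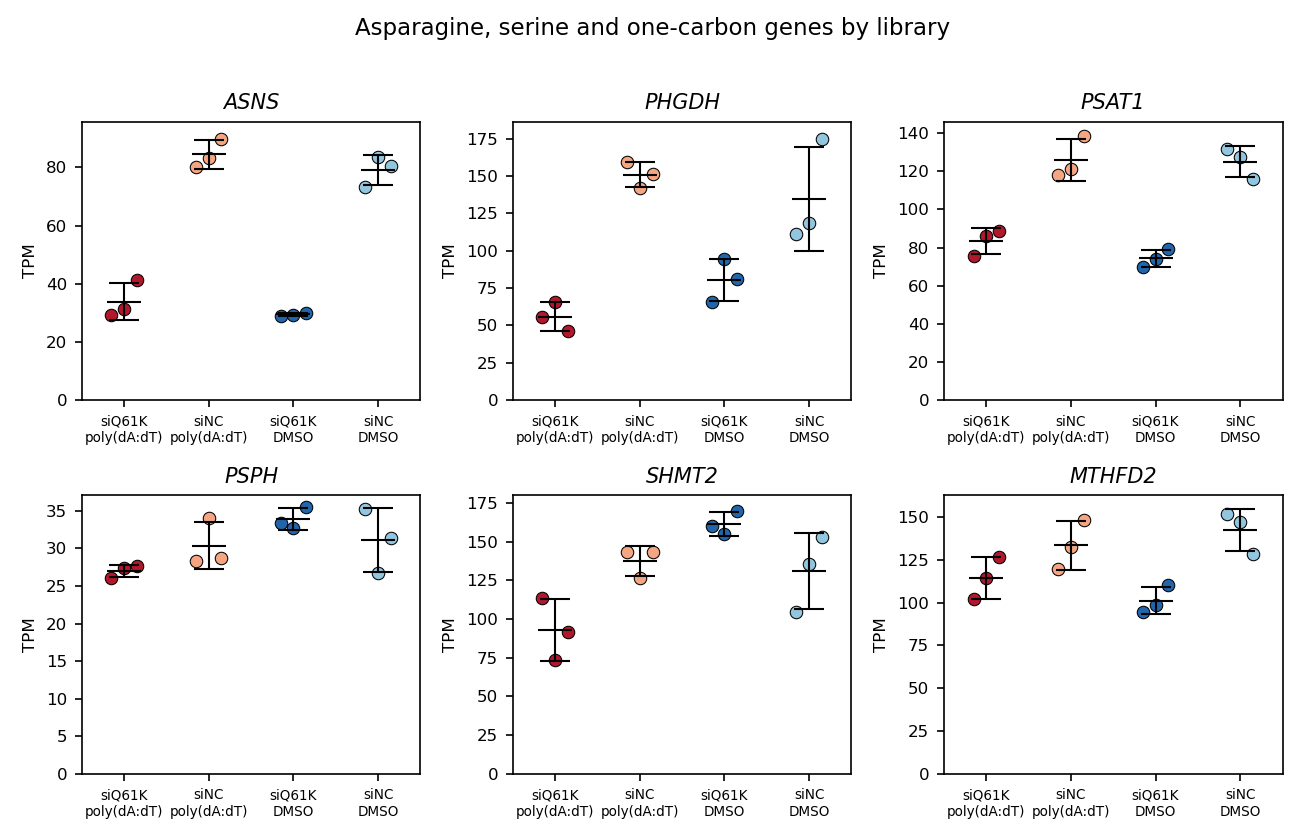
TPM of 6 asparagine, serine and one-carbon genes in each of the 12 libraries (points), with the mean (long bar) and SD (whiskers) of 3 libraries per group. In ASNS, PHGDH and PSAT1 every siQ61K point lies below every siNC point of the same treatment, whereas in SHMT2 the siQ61K points lie below siNC with poly(dA:dT) and above it with DMSO.

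On the deposited values, calls of the mitochondrial one-carbon genes downstream of serine differed between the treatments. MTHFD2, a mitochondrial folate dehydrogenase, fell with DMSO. MTHFD2 stood at 102, 114 and 127 TPM in siQ61K cells with poly(dA:dT), 119.6, 133 and 148 TPM in siNC cells with poly(dA:dT), 94.8, 98.9 and 110.1 TPM in siQ61K cells with DMSO and 152, 147 and 128 TPM in siNC cells with DMSO. Its groups separated with DMSO and overlapped with poly(dA:dT), and the log2 fold changes were -0.49 (adjusted p = 0.00721) with DMSO and -0.22 (adjusted p = 0.202) with poly(dA:dT). SHMT2, which splits serine into glycine and a one-carbon unit in mitochondria, fell with poly(dA:dT). SHMT2 stood at 114, 73.3 and 91.5 TPM in siQ61K cells with poly(dA:dT), 143, 126 and 143 TPM in siNC cells with poly(dA:dT), 159.8, 155 and 169.7 TPM in siQ61K cells with DMSO and 104, 136 and 153 TPM in siNC cells with DMSO. With poly(dA:dT) all siQ61K libraries were below all siNC libraries, and with DMSO all were above, the second difference not being called. This gave a log2 fold change of -0.58 (adjusted p = 0.0203) with poly(dA:dT) and 0.32 (adjusted p = 0.15) with DMSO. That call of SHMT2 was lost without siQ61K poly(dA:dT) library 2 or 3 or siNC poly(dA:dT) library 1 or 3 (adjusted p 0.0537 to 0.0877). After the GC and length correction both MTHFD2 and SHMT2 were called lower with poly(dA:dT). A test of the difference between treatments, the interaction, was called for SHMT2 on deposited values (-0.90, adjusted p = 0.0202 in limma). It was not called after the correction. MTHFD2 had no interaction call. ALDH1L2, another mitochondrial folate enzyme, was near the floor of the filter at 0.244 to 2.80 TPM and was not called.

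The 2 chains of the large neutral amino acid transporter fell together in knockdown cells with poly(dA:dT). SLC7A5 carries leucine and other large amino acids and SLC3A2 is the partner chain that brings it to the membrane. SLC7A5 stood at 52.3, 37.1 and 39.8 TPM in siQ61K cells with poly(dA:dT), 69.9, 69.5 and 83.3 TPM in siNC cells with poly(dA:dT), 69.2, 66.0 and 85.6 TPM in siQ61K cells with DMSO and 58.5, 73.6 and 74.4 TPM in siNC cells with DMSO. Every siQ61K library with poly(dA:dT) was below all other groups. The fold change (log2) of SLC7A5 was -0.78 (adjusted p = 0.00325, SE 0.15) with poly(dA:dT) and 0.09 (adjusted p = 0.677) with DMSO. SLC3A2 averaged 87.9 ± 7.18 TPM in siQ61K cells and 136 ± 15.8 TPM in siNC cells with poly(dA:dT), and 106 ± 4.21 TPM in siQ61K cells and 105 ± 6.25 TPM in siNC cells with DMSO (SD, n = 3 each). Its log2 fold change was -0.63 (adjusted p = 0.00136, SE 0.11) with poly(dA:dT) and 0.02 (adjusted p = 0.925) with DMSO. SLC3A2 has the C/EBP-ATF element in its window printed above. With DMSO the sign of both turned with the GC and length correction, to -0.35 for SLC7A5 (adjusted p = 0.0192) and -0.29 for SLC3A2 (adjusted p = 0.0402), and both then passed the threshold.

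The other transporters were not called. SLC7A11, the cystine-glutamate exchanger, stood at only 2.03 to 3.51 TPM. SLC38A2, a transporter of small neutral amino acids, averaged 208 ± 6.62 TPM in siQ61K cells and 153 ± 16.9 TPM in siNC cells with poly(dA:dT), and its log2 fold change there was 0.44 (adjusted p = 0.0861). It thus stood on the other side of 0 from SLC7A5 and SLC3A2 without passing the test on the deposited values. After the GC and length correction SLC38A2 was called higher, at 0.42 (adjusted p = 0.00768).

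Among the transcription factors of the programme, CEBPB changed most. CEBPB, a C/EBP factor that pairs with ATF4, fell in knockdown cells with poly(dA:dT). CEBPB stood at 110.2, 70.4 and 81.6 TPM in siQ61K cells with poly(dA:dT), 184, 145 and 139 TPM in siNC cells with poly(dA:dT), 152, 133 and 140.3 TPM in siQ61K cells with DMSO and 111, 111 and 109.5 TPM in siNC cells with DMSO. With poly(dA:dT) the siQ61K libraries were the lower, and with DMSO they were the higher, in both cases without overlap. On the log2 scale the change was -0.84 (adjusted p = 0.00175, SE 0.15) with poly(dA:dT) and 0.35 (adjusted p = 0.0898) with DMSO. The call of CEBPB with poly(dA:dT) was kept after the GC and length correction. Its difference between treatments, the interaction, was not called after that correction. CEBPB had the highest GC content of the tested genes listed here, at 66.2%. ATF4 showed the same order of groups as CEBPB at a smaller size. ATF4 stood at 244, 207 and 202 TPM in siQ61K cells with poly(dA:dT), 266, 267 and 264 TPM in siNC cells with poly(dA:dT), 277, 253 and 245 TPM in siQ61K cells with DMSO and 219, 216 and 227 TPM in siNC cells with DMSO. Its log2 fold change was -0.30 (adjusted p = 0.0369) with poly(dA:dT) and 0.23 (adjusted p = 0.0791) with DMSO. The first call of ATF4 was lost once corrected for GC content and length (-0.14, adjusted p = 0.13) and without any 1 of 7 libraries, namely siQ61K DMSO 2, siNC DMSO 2, siQ61K poly(dA:dT) 2 or 3, or any siNC poly(dA:dT) library (adjusted p 0.0506 to 0.127).

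DDIT3, the transcription factor CHOP, was the 1 ATF4-response gene that rose. DDIT3 stood at 28.3, 31.9 and 29.6 TPM in siQ61K cells with poly(dA:dT), 16.8, 20.8 and 26.1 TPM in siNC cells with poly(dA:dT), 24.0, 22.9 and 29.5 TPM in siQ61K cells with DMSO and 20.0, 19.1 and 18.5 TPM in siNC cells with DMSO. All siQ61K values were above all siNC values of the same treatment. The log2 fold change was 0.50 (adjusted p = 0.0347) with poly(dA:dT) and 0.38 (adjusted p = 0.0738) with DMSO, so that the second missed the threshold. The first call was lost without siQ61K poly(dA:dT) library 2 or 3 or siNC poly(dA:dT) library 1 or 2 (adjusted p 0.0773 to 0.139). ATF3, a stress-induced factor of the same family, at 4.94 to 10.2 TPM, and TRIB3, a pseudokinase that restrains ATF4 and AKT, at 27.9 to 42.1 TPM, were called in no comparison.

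Of the stress effectors, DDIT4 fell most clearly. DDIT4 (REDD1) restrains the growth kinase mTORC1. DDIT4 stood at 38.3, 24.3 and 25.0 TPM in siQ61K cells with poly(dA:dT), 69.6, 57.2 and 53.4 TPM in siNC cells with poly(dA:dT), 47.7, 46.3 and 48.7 TPM in siQ61K cells with DMSO and 47.3, 47.5 and 54.8 TPM in siNC cells with DMSO. The siQ61K libraries with poly(dA:dT) stood below all other libraries, and with DMSO the siRNA groups overlapped. This gave a log2 fold change of -1.04 (adjusted p = 0.000695, SE 0.16) with poly(dA:dT) and -0.07 (adjusted p = 0.793) with DMSO. SESN2, a leucine sensor that also restrains mTORC1, and PPP1R15A (GADD34), the phosphatase subunit that reverses eIF2 phosphorylation, fell with poly(dA:dT) at -0.50 (adjusted p = 0.045) and -0.58 (adjusted p = 0.0426). PPP1R15A stood at 17.6, 11 and 11.5 TPM in siQ61K cells with poly(dA:dT), 22.5, 17.8 and 20.0 TPM in siNC cells with poly(dA:dT), 22.5, 22.9 and 22.4 TPM in siQ61K cells with DMSO and 14.7, 14.4 and 21.2 TPM in siNC cells with DMSO. SESN2 averaged 8.73 ± 1.32 TPM in siQ61K cells and 12.8 ± 2.14 TPM in siNC cells with poly(dA:dT), and 14.6 ± 1.06 TPM in siQ61K cells and 11.2 ± 1.59 TPM in siNC cells with DMSO (SD, n = 3 each). In both genes the siQ61K libraries were the lower with poly(dA:dT) and the higher with DMSO, without overlap. The calls of SESN2 and PPP1R15A with poly(dA:dT) were lost once corrected for GC content and length (adjusted p = 0.107 and 0.0571). Each was also lost without any 1 of 7 libraries, with adjusted p 0.0572 to 0.161 for SESN2 and 0.0551 to 0.154 for PPP1R15A. Those shared by both genes were siQ61K DMSO 1 and 2, siQ61K poly(dA:dT) 2 and 3 and siNC poly(dA:dT) 1 and 3, and the seventh was siNC DMSO 2 for SESN2 and siNC poly(dA:dT) 2 for PPP1R15A.

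**Figure D2:**
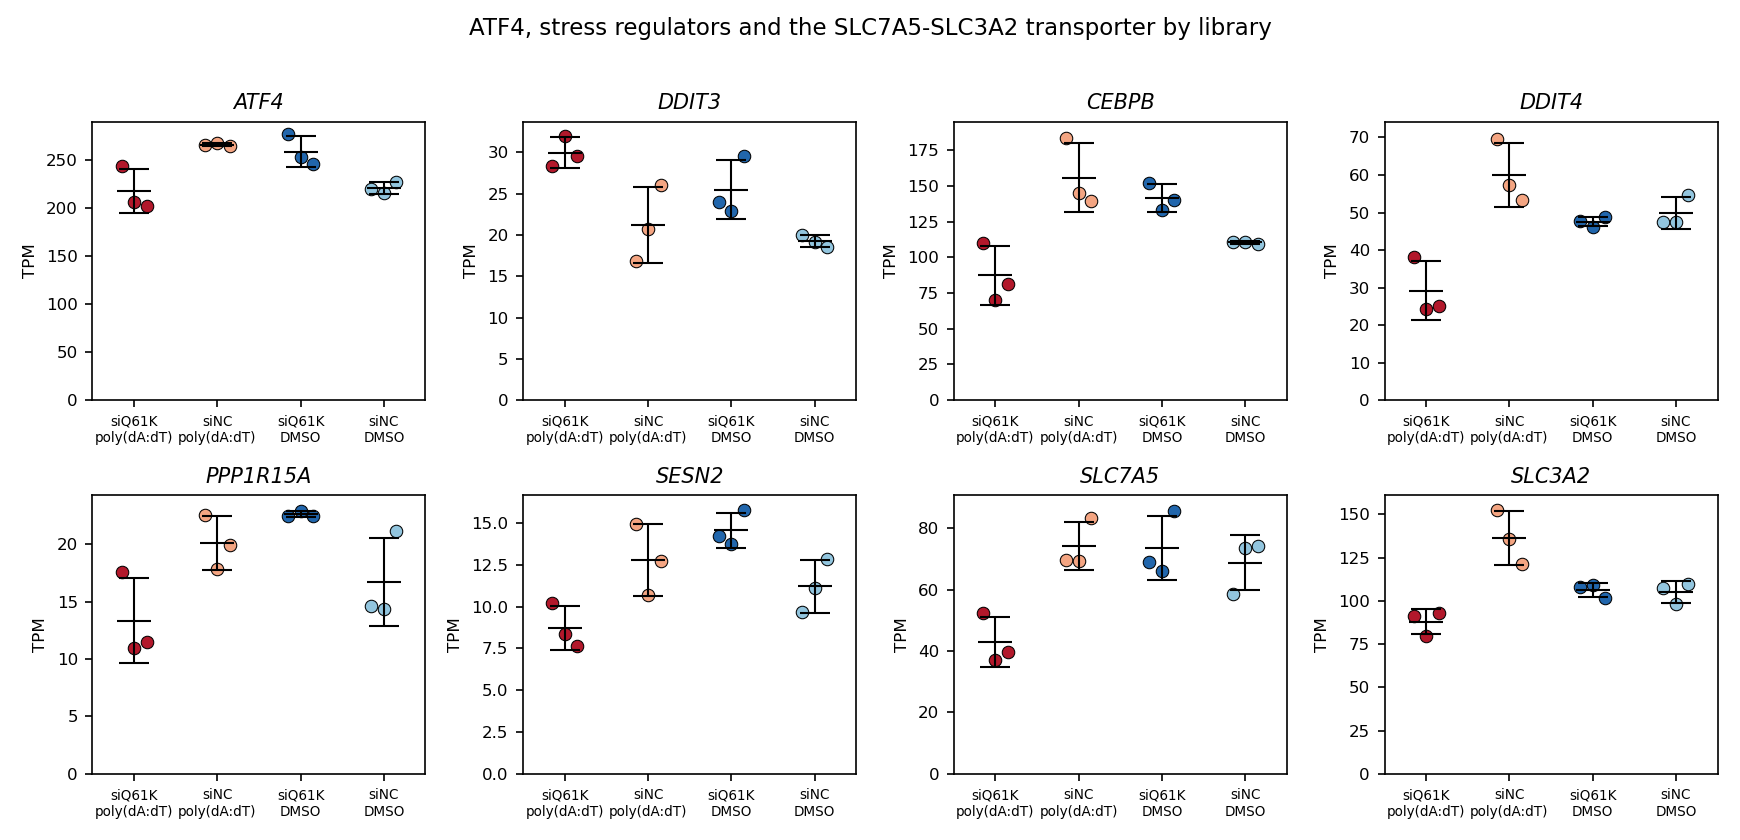
TPM of ATF4, DDIT3, CEBPB, 3 stress effectors and the SLC7A5-SLC3A2 transporter in each of the 12 libraries (points), with the mean (long bar) and SD (whiskers) of 3 libraries per group. Apart from DDIT3, the siQ61K libraries with poly(dA:dT) lie below the siNC libraries with poly(dA:dT) in each gene shown.

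Genes of the UPR were called in both directions under knockdown, as were genes of the whole table. With poly(dA:dT), 3 of 20 rose (15%) and 3 fell (15%), against 8.71% of all tested genes called higher and 12.6% lower. With DMSO 4 rose (20%) and 4 fell (20%), against 16.6% higher and 14.8% lower. Values corrected for GC content and length gave 6 higher and 3 lower with poly(dA:dT), and 7 higher and 3 lower with DMSO. The corrected shares of all genes, called either way, were 26.9% with poly(dA:dT) and 27.5% with DMSO. Over both sets 18 of 39 tested genes (46.2%) were called with poly(dA:dT), against 21.4% of all tested genes, and 12 of 39 (30.8%) with DMSO, against 31.5% of all tested genes. The share with DMSO was thus close to that of all genes. The median log2 fold change of the UPR genes was 0.01 in both comparisons, and after the correction 0.13 with poly(dA:dT) and 0.07 with DMSO.

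HSPA5 (BiP), the main ER chaperone and the brake on the stress sensors, rose in both. HSPA5 stood at 689, 710.0 and 828 TPM in siQ61K cells with poly(dA:dT), 472, 478 and 495 TPM in siNC cells with poly(dA:dT), 580.3, 583 and 638 TPM in siQ61K cells with DMSO and 522, 513 and 449.5 TPM in siNC cells with DMSO. All siQ61K values were above all siNC values of the same treatment, and the highest were with poly(dA:dT). On the log2 scale the change was 0.62 (adjusted p = 0.000643, SE 0.10) with poly(dA:dT) and 0.28 (adjusted p = 0.0387, SE 0.10) with DMSO. The call with DMSO was lost without any 1 DMSO library and without siNC poly(dA:dT) library 2 or 3 (adjusted p 0.0504 to 0.123), whereas that with poly(dA:dT) was kept without any 1 of the 12 libraries.

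The transcription factor XBP1 fell in both. XBP1 stood at 62.0, 55.5 and 71.4 TPM in siQ61K cells with poly(dA:dT), 78.1, 79.0 and 85.6 TPM in siNC cells with poly(dA:dT), 47.7, 46.2 and 49.0 TPM in siQ61K cells with DMSO and 88.2, 84.4 and 80.1 TPM in siNC cells with DMSO. The siQ61K libraries were lower throughout, with the lowest values with DMSO. The log2 fold change was -0.36 (adjusted p = 0.0276) with poly(dA:dT) and -0.81 (adjusted p = 0.000184, SE 0.11) with DMSO. The call with poly(dA:dT) was lost without siQ61K poly(dA:dT) library 2 or any siNC poly(dA:dT) library (adjusted p 0.0534 to 0.113). The sensors were not called. ATF6 stood at 13.4, 13.4 and 14.3 TPM in siQ61K cells with poly(dA:dT), 11.8, 13.9 and 17.2 TPM in siNC cells with poly(dA:dT), 13.9, 13.8 and 19.0 TPM in siQ61K cells with DMSO and 18.0, 20.4 and 16.2 TPM in siNC cells with DMSO. ERN1 stood at 2.37, 1.00 and 1.33 TPM in siQ61K cells with poly(dA:dT), 3.56, 2.94 and 2.72 TPM in siNC cells with poly(dA:dT), 1.84, 2.05 and 3.32 TPM in siQ61K cells with DMSO and 2.93, 5.82 and 2.82 TPM in siNC cells with DMSO. ATF6 values overlapped between siRNAs under both treatments, and ERN1 was low, with siQ61K below siNC without overlap only with poly(dA:dT). The fold change (log2) of ERN1 was -0.70 (adjusted p = 0.0923) with poly(dA:dT) and -0.48 (adjusted p = 0.208) with DMSO.

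In ER-associated degradation, EDEM1, a lectin that hands misfolded glycoproteins to disposal, fell in both comparisons. EDEM1 stood at 24.4, 21.0 and 26.1 TPM in siQ61K cells with poly(dA:dT), 36.6, 33.5 and 40.1 TPM in siNC cells with poly(dA:dT), 23.8, 21.7 and 35.4 TPM in siQ61K cells with DMSO and 43.4, 45.1 and 37.2 TPM in siNC cells with DMSO. The siQ61K values were below the siNC values under both treatments, siQ61K DMSO library 3 being the closest to siNC. This gave a log2 fold change of -0.60 (adjusted p = 0.0218) with poly(dA:dT) and -0.65 (adjusted p = 0.0112) with DMSO. These calls were kept after the GC and length correction. They were lost with poly(dA:dT) without siQ61K poly(dA:dT) library 2 or siNC poly(dA:dT) library 1 or 3 (adjusted p 0.0562 to 0.0842), and with DMSO without siQ61K DMSO library 1 or 2 (adjusted p 0.0502 to 0.052). HERPUD1, a membrane protein of the same machinery, rose with poly(dA:dT). HERPUD1 stood at 62.5, 69.1 and 61.2 TPM in siQ61K cells with poly(dA:dT), 50.4, 47.8 and 48.5 TPM in siNC cells with poly(dA:dT), 56.6, 62.7 and 56.4 TPM in siQ61K cells with DMSO and 60.4, 51.9 and 49.6 TPM in siNC cells with DMSO. On the log2 scale the change was 0.39 (adjusted p = 0.02) with poly(dA:dT), where the groups did not overlap, and 0.12 (adjusted p = 0.42) with DMSO. The call was lost without siQ61K poly(dA:dT) library 2 or siNC poly(dA:dT) library 2 or 3 (adjusted p 0.0558 to 0.078). SEL1L, the scaffold of the HRD1 ubiquitin ligase, was not called, at -0.06 (adjusted p = 0.857) with poly(dA:dT) and -0.43 (adjusted p = 0.0827) with DMSO.

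DNAJB9 (ERdj4), a co-chaperone that returns HSPA5 to ERN1, rose with poly(dA:dT). DNAJB9 stood at 14.7, 18.6 and 17.5 TPM in siQ61K cells with poly(dA:dT), 7.85, 9.48 and 9.82 TPM in siNC cells with poly(dA:dT), 9.61, 13.7 and 10.7 TPM in siQ61K cells with DMSO and 13.1, 12.4 and 9.38 TPM in siNC cells with DMSO. The siQ61K libraries with poly(dA:dT) stood above all others, and the other 3 groups overlapped. The log2 fold change was 0.84 (adjusted p = 0.00439, SE 0.17) with poly(dA:dT) and -0.03 (adjusted p = 0.9) with DMSO. The interaction, which tests that difference, was 0.87 (adjusted p = 0.0296), but its call was lost once corrected for GC content and length (0.53, adjusted p = 0.181) and without any 1 of 8 libraries, named with the interaction further on (adjusted p 0.0513 to 0.0807). The other HSPA5 co-chaperones DNAJC3 and DNAJB11 were not called, at 0.36 and -0.04 with poly(dA:dT) and at 0.10 and 0.04 with DMSO.

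Chaperones of the ER lumen went opposite ways with DMSO. HSP90B1 (GRP94), the ER form of HSP90, fell. HSP90B1 stood at 1005, 1226 and 1399.5 TPM in siQ61K cells with poly(dA:dT), 949, 958 and 1027 TPM in siNC cells with poly(dA:dT), 777, 815 and 876 TPM in siQ61K cells with DMSO and 1205, 1191 and 986 TPM in siNC cells with DMSO. CALR, a calcium-binding lectin chaperone, and HYOU1, an exchange factor for HSPA5, rose with DMSO by 0.54 (adjusted p = 0.00341, SE 0.11) and 0.54 (adjusted p = 0.00382, SE 0.12). CALR averaged 1046 ± 161 TPM in siQ61K cells and 877 ± 46.9 TPM in siNC cells with poly(dA:dT), and 1290.1 ± 33.4 TPM in siQ61K cells and 891 ± 84.7 TPM in siNC cells with DMSO (SD, n = 3 each). The fold change (log2) of HSP90B1 was -0.45 (adjusted p = 0.0128) with DMSO and 0.29 (adjusted p = 0.0988) with poly(dA:dT). The call of HSP90B1 was lost once corrected for GC content and length (-0.21, adjusted p = 0.0875) and without siQ61K DMSO library 1 or siNC DMSO library 1 or 2 (adjusted p 0.0528 to 0.0572). CALR and HYOU1 kept theirs in both checks. CANX, the membrane-bound partner of CALR, was not called.

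The secreted ER stress proteins MANF and CRELD2 moved apart with DMSO. MANF, a survival factor released on ER stress, fell in siQ61K cells with DMSO. MANF stood at 127, 166 and 192 TPM in siQ61K cells with poly(dA:dT), 161, 169 and 145 TPM in siNC cells with poly(dA:dT), 84.5, 108 and 91.0 TPM in siQ61K cells with DMSO and 172, 165 and 187 TPM in siNC cells with DMSO. The 3 siQ61K DMSO libraries were the lowest of the 12, and the other groups overlapped. CRELD2, a disulphide isomerase-like protein co-secreted under ER stress, rose. CRELD2 stood at 46.2, 39.9 and 47.1 TPM in siQ61K cells with poly(dA:dT), 45.1, 43.7 and 39.2 TPM in siNC cells with poly(dA:dT), 62.4, 55.0 and 49.0 TPM in siQ61K cells with DMSO and 28.8, 28.2 and 37.1 TPM in siNC cells with DMSO. The siQ61K DMSO libraries were the highest of the 12 and the siNC DMSO libraries the lowest. The log2 fold change with DMSO was -0.88 (adjusted p = 0.00071, SE 0.14) for MANF and 0.81 (adjusted p = 0.000845, SE 0.14) for CRELD2, and with poly(dA:dT) 0.01 (adjusted p = 0.966) for MANF and 0.06 (adjusted p = 0.809) for CRELD2. SDF2L1, a further lumenal stress protein, was not called, at 0.48 (adjusted p = 0.0716) with DMSO. Of the disulphide isomerases, PDIA4 fell with poly(dA:dT), at -0.38 (adjusted p = 0.0318), while PDIA3 and PDIA6 were not called. That call of PDIA4 was lost without siQ61K poly(dA:dT) library 2 or 3 or any siNC poly(dA:dT) library (adjusted p 0.0669 to 0.131).

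**Figure D3:**
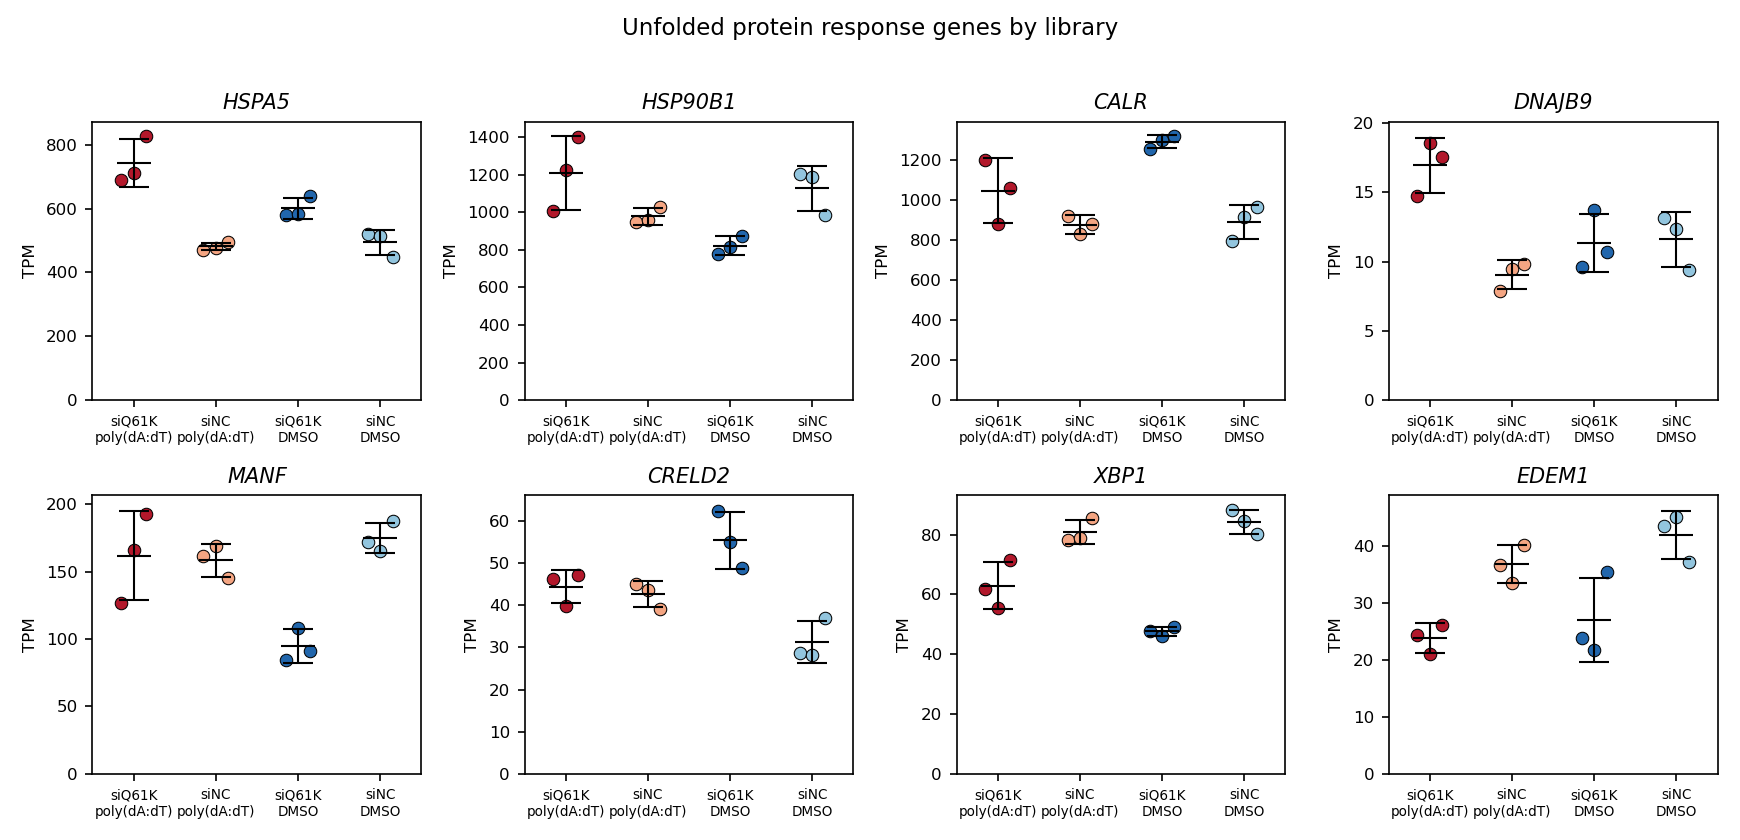
TPM of 8 unfolded protein response genes in each of the 12 libraries (points), with the mean (long bar) and SD (whiskers) of 3 libraries per group. HSPA5 lies higher in siQ61K than in siNC under both treatments, XBP1 and EDEM1 lie lower, and MANF and CRELD2 are set apart in siQ61K cells with DMSO in opposite directions.

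Genes with the same promoter element did not all share a direction. With DMSO, of the 7 genes with an ER stress element, CRELD2, CALR and HSPA5 rose, HSP90B1 and XBP1 fell, and CANX and PDIA6 were not called. In cells with poly(dA:dT), HSPA5 rose, XBP1 fell and the other 5 were not called. After the GC and length correction HSP90B1 was not called with DMSO (adjusted p = 0.0875 in limma) and CANX was called higher (0.31, adjusted p = 0.00605). With poly(dA:dT) CALR (0.34, adjusted p = 0.0113) and CANX (0.32, adjusted p = 0.00472) were then also higher, and XBP1 alone stayed lower. The DMSO calls of HSPA5 and HSP90B1 were also lost without single libraries, as given above. Of the genes tested that have a C/EBP-ATF element, ASNS fell in both comparisons and SLC3A2 with poly(dA:dT), HERPUD1 rose with poly(dA:dT), and ATF3 was called in neither.

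Of the 18 genes called with poly(dA:dT), 9 were kept under every alternative run: HSPA5, DNAJB9, DDIT4, ASNS, PSAT1, PHGDH, CEBPB, SLC7A5 and SLC3A2. Of those 12 called with DMSO, 9 were likewise kept: CALR, HYOU1, MANF, CRELD2, XBP1, ASNS, PSAT1, PHGDH and MTHFD2. The split with poly(dA:dT) of 4 higher and 14 lower calls on the deposited values became 8 higher and 10 lower with median-of-ratios scaling and 7 higher and 9 lower with quantile normalization, and the count fell to 10 without siNC poly(dA:dT) library 1 or 3 and to 11 without siQ61K poly(dA:dT) library 2. After the GC and length correction 20 genes were called with poly(dA:dT), against 26.9% of all genes, and 17 with DMSO, against 27.5% of all genes. The calls gained with poly(dA:dT) were higher DNAJC3, CANX, CALR and SLC38A2 and lower MTHFD2, and those gained with DMSO were higher DNAJC3, DNAJB11 and CANX and lower DDIT4, SLC7A5 and SLC3A2.

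**Figure D4:**
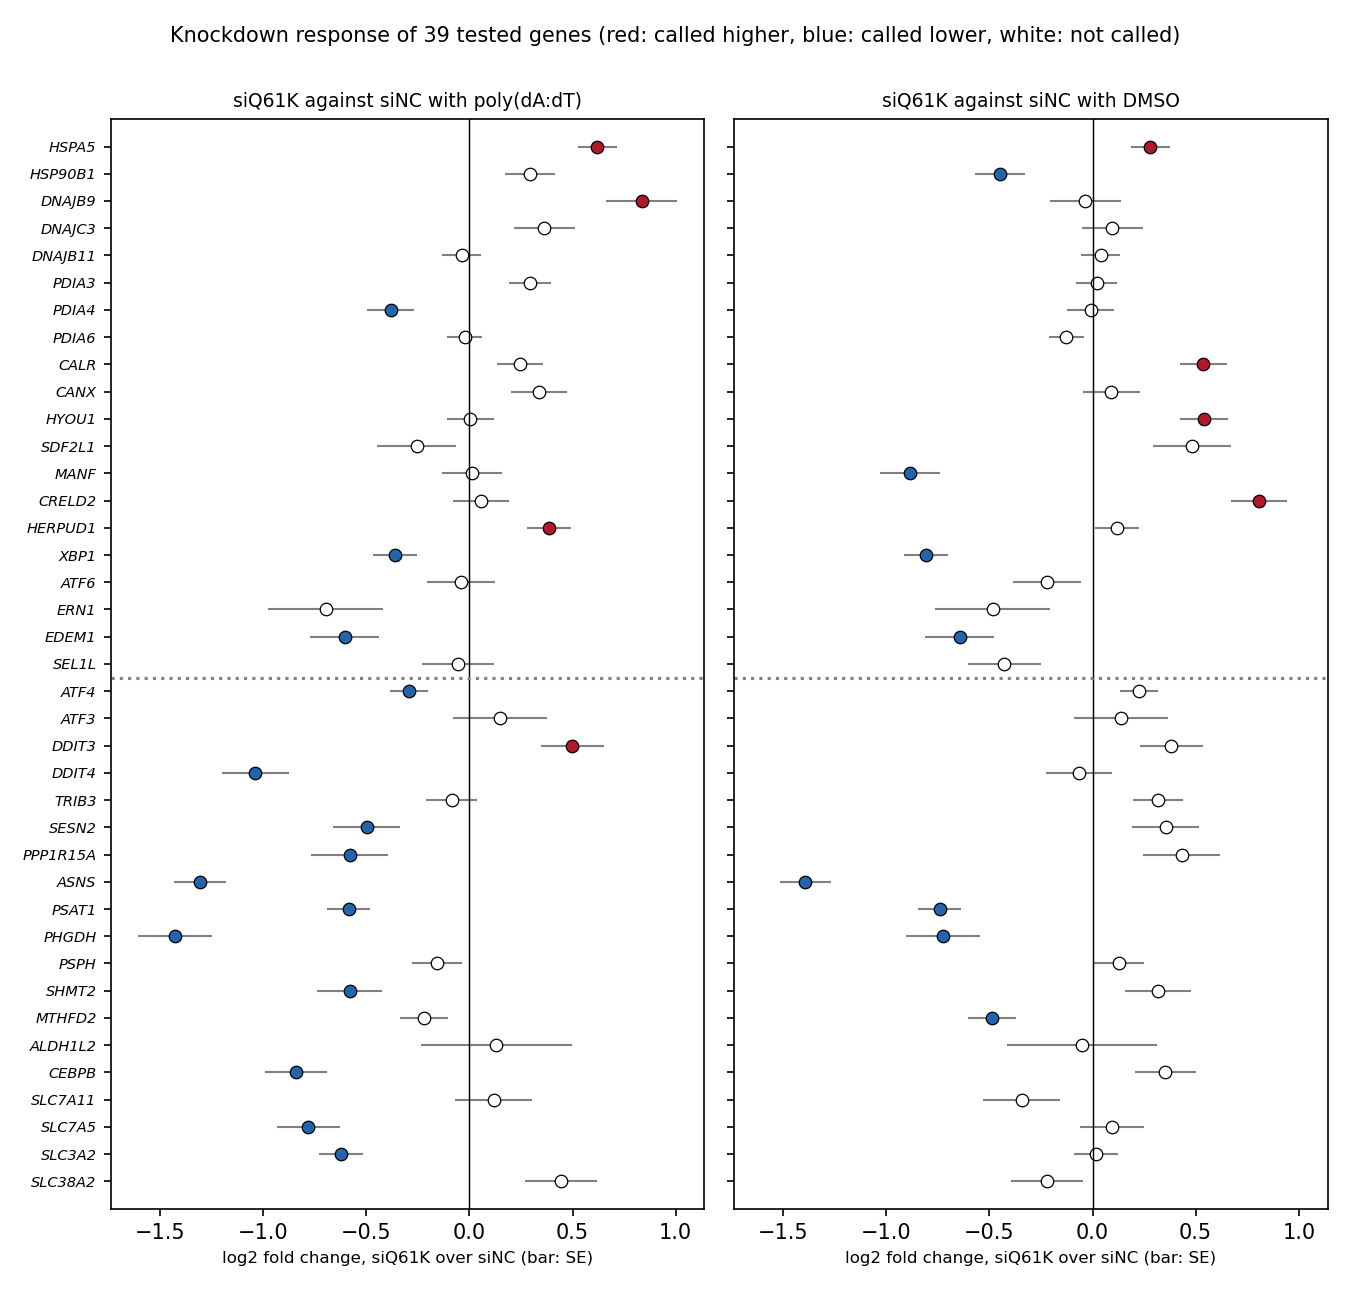
Log2 fold change of siQ61K over siNC (points) with its SE (bars) for the 39 tested genes, with poly(dA:dT) on the left and DMSO on the right, UPR genes above the dotted line and ATF4-response genes below it. ASNS, PSAT1 and PHGDH lie left of 0 in both, and 11 genes of the ATF4 response are called lower with poly(dA:dT) against 4 with DMSO. Of all tested genes, 12.6% and 14.8% were called lower in that order. After the GC and length correction, which is not plotted, the ATF4-response counts are 9 and 7. With it 26.9% and 27.5% of all genes were called either way.

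Poly(dA:dT) by itself moved none of these genes past the threshold in siNC cells. By limma, 0 of 39 were called, against 0.122% of all tested genes called either way, 0.0747% higher and 0.0475% lower. At an unadjusted p under 0.05, 7 genes passed, 5 higher and 2 lower, beside 1640 of all tested genes. CEBPB averaged 156 ± 24.1 TPM in siNC cells with poly(dA:dT) and 111 ± 0.890 TPM in siNC cells with DMSO, with a log2 fold change of 0.48 (adjusted p = 0.314). CRELD2 had a log2 fold change of 0.44 (adjusted p = 0.314) and SLC3A2 of 0.37 (adjusted p = 0.298). After the GC and length correction 0 of 39 were called, against 0.204% of all genes. Over the 39 genes, Spearman's rho between this fold change and GC content was 0.811, and over all genes it was 0.499; genes share the libraries and are not independent.

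In siQ61K cells, genes of both sets were called for poly(dA:dT) against DMSO. Of the 39 genes 12 were called (30.8%), against 25.2% of all tested genes. By direction, 12.8% were called higher and 17.9% lower, against 6.92% and 18.3% of all genes. The share called lower was thus close to that of all genes. Among UPR genes 5 of 20 rose (25%), namely MANF, HSP90B1, DNAJB9, XBP1 and HSPA5, and PDIA4 fell (5%). Among ATF4-response genes 6 of 19 fell (31.6%), namely SHMT2, SLC7A5, PPP1R15A, DDIT4, CEBPB and SESN2, and 0 rose. This comparison uses the same siQ61K DMSO libraries as the knockdown comparison with DMSO and the same siQ61K poly(dA:dT) libraries as the other, so the directions are not independent of those above.

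MANF had the largest rise, with 127, 166 and 192 TPM in siQ61K cells with poly(dA:dT) and 84.5, 108 and 91.0 TPM in siQ61K cells with DMSO. The groups did not overlap, and the log2 fold change was 0.75 (adjusted p = 0.00569, SE 0.14). This gave a log2 fold change of 0.55 (adjusted p = 0.0083) for HSP90B1, 0.55 (adjusted p = 0.0353) for DNAJB9, 0.39 (adjusted p = 0.0195) for XBP1 and 0.30 (adjusted p = 0.0353) for HSPA5. SHMT2 had the largest fall, with 114, 73.3 and 91.5 TPM with poly(dA:dT) and 159.8, 155 and 169.7 TPM with DMSO, both in siQ61K cells, and a log2 fold change of -0.81 (adjusted p = 0.00588, SE 0.16). SLC7A5 changed by -0.77 (adjusted p = 0.0061), PPP1R15A by -0.75 (adjusted p = 0.0136), DDIT4 by -0.72 (adjusted p = 0.00906), CEBPB by -0.71 (adjusted p = 0.00689), SESN2 by -0.68 (adjusted p = 0.0113) and PDIA4 by -0.35 (adjusted p = 0.0418) on the log2 scale. ASNS (0.18), PSAT1 (0.16) and PHGDH (-0.51 (adjusted p = 0.0516)) were not called.

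The GC and length correction left 4 of these 12 calls, against 8.67% of all genes. They were HSPA5 (0.40, adjusted p = 0.015), HSP90B1 (0.43, adjusted p = 0.0142), MANF (0.83, adjusted p = 0.00935) and DDIT4 (-0.40, adjusted p = 0.0434). HSP90B1, MANF, DDIT4, SHMT2, CEBPB and SLC7A5 kept their calls whichever 1 library was left out. The count of called genes was 6 without siQ61K poly(dA:dT) library 3, and 0 without siQ61K DMSO library 3 and siQ61K poly(dA:dT) library 2 together. The calls were lost for HSPA5 without siQ61K DMSO library 1 or 2, siQ61K poly(dA:dT) library 2 or 3 or siNC poly(dA:dT) library 2 (adjusted p 0.0523 to 0.146). For DNAJB9 they were siQ61K DMSO 1 or 3 and siQ61K poly(dA:dT) 2 or 3 (adjusted p 0.0884 to 0.129), and for XBP1 siQ61K DMSO 1 or 2 and siQ61K poly(dA:dT) 3 (adjusted p 0.0544 to 0.0871). PPP1R15A lost its call without siQ61K poly(dA:dT) library 2 or 3 (adjusted p 0.0606 to 0.062) and SESN2 without library 3 of that group (adjusted p = 0.052). PDIA4 lost its call without any 1 of 9 libraries (adjusted p 0.0522 to 0.174), all except siNC DMSO 1 and 3 and siQ61K poly(dA:dT) 1, and its log2 fold change was -0.23 without siQ61K poly(dA:dT) library 2. With median-of-ratios scaling 7 genes were called higher and 6 lower, and with quantile normalization 4 higher and 7 lower, where the deposited values gave 5 and 7; the first of these scalings put the median of all genes at -0.01, beside -0.15 on the deposited values.

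The interaction sets the poly(dA:dT) response in siQ61K cells against that in siNC cells. It was called for 13 of 39 genes (33.3%), against 18.1% of all tested genes, of which 6% were called higher and 12.1% lower. Among UPR genes 3 were higher, MANF, DNAJB9 and HSP90B1, and 2 were lower, CRELD2 and HYOU1. Among ATF4-response genes 8 were lower, CEBPB, PPP1R15A, DDIT4, SHMT2, SLC7A5, SESN2, SLC3A2 and ATF4, and 0 higher. The median was -0.40 in the ATF4-response genes and 0.21 in the UPR genes, beside -0.06 over all genes. Corrected for GC content and length, these medians were -0.13 and 0.02 in that order, beside 0.01 over all genes. For CEBPB the response to poly(dA:dT) was -0.71 in siQ61K cells and 0.48 in siNC cells, which gave an interaction of -1.20 (adjusted p = 0.00781, SE 0.21). For MANF the responses were 0.75 in siQ61K cells and -0.14 in siNC cells, and the interaction was 0.90 (adjusted p = 0.015, SE 0.20). ASNS and PSAT1 had interactions of 0.09 (adjusted p = 0.768) and 0.16 (adjusted p = 0.491), so their fall under knockdown was not shown to depend on poly(dA:dT).

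The interaction tracked the GC content of the genes. Spearman's rho between them was -0.836 over the 39 genes and -0.651 over all genes. After the GC and length correction 1 of 39 genes was called, against 2.06% of all genes: MANF, at 1.00 (adjusted p = 0.0378). Without siQ61K DMSO library 3 and siQ61K poly(dA:dT) library 2 together, CEBPB alone was called on the deposited values, at -1.06 (adjusted p = 0.0406), and MANF stood at 0.84 (adjusted p = 0.0647). HSP90B1, MANF, DDIT4, CEBPB and SLC3A2 kept their calls whichever 1 library was left out. Of the other 8, calls were lost without 1 library as follows: siQ61K DMSO 1, siNC DMSO 1 or siQ61K poly(dA:dT) 3 for ATF4 (adjusted p 0.0518 to 0.0544), siNC DMSO 1 or siQ61K poly(dA:dT) 3 for SLC7A5 (adjusted p 0.052 to 0.0551) and siNC DMSO 1 for SHMT2 (adjusted p = 0.0531). SESN2 and PPP1R15A lost theirs without siQ61K DMSO 1, siNC DMSO 1 or 2, siQ61K poly(dA:dT) 2 or 3 or siNC poly(dA:dT) 1 (adjusted p 0.0529 to 0.0713 for SESN2 and 0.0501 to 0.0629 for PPP1R15A), and CRELD2 without siQ61K DMSO 1, siNC DMSO 1 or 2, siQ61K poly(dA:dT) 2 or siNC poly(dA:dT) 1 (adjusted p 0.0518 to 0.0582). DNAJB9 lost its call without siQ61K DMSO 1 or 3, siNC DMSO 1 or 2, siQ61K poly(dA:dT) 2 or 3 or siNC poly(dA:dT) 1 or 2 (adjusted p 0.0513 to 0.0807), and HYOU1 without any siQ61K DMSO library, siNC DMSO 1 or 2, siQ61K poly(dA:dT) 2 or 3 or siNC poly(dA:dT) 1 or 2 (adjusted p 0.0662 to 0.104). The count of called genes was 5 without siNC DMSO library 1, 7 without siQ61K DMSO library 1 or siQ61K poly(dA:dT) library 3, and 8 without siNC DMSO library 2 or siNC poly(dA:dT) library 1. With median-of-ratios scaling 6 genes were called higher and 6 lower, and with quantile normalization 4 higher and 9 lower, where the deposited values gave 3 and 10. The median GC content was 52.3% in the ATF4-response genes and 45.5% in the UPR genes.

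**Figure D5:**
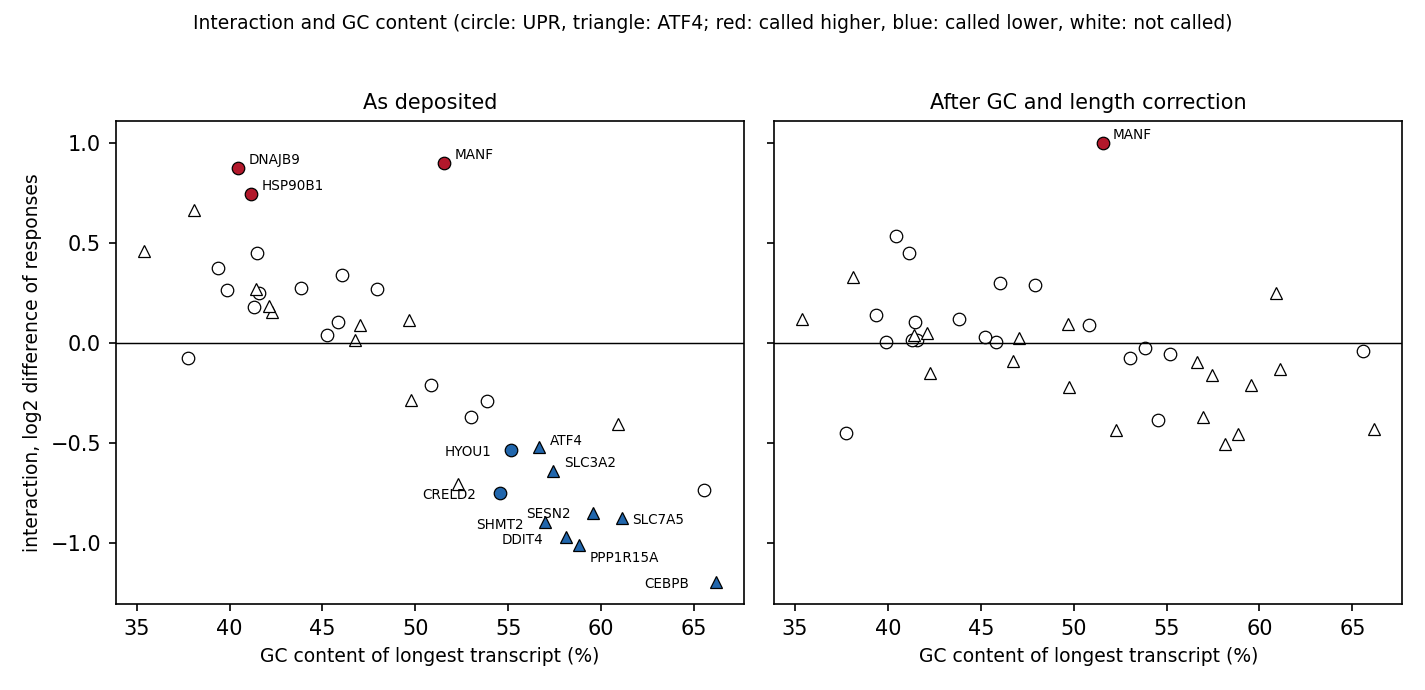
Interaction on the log2 scale (response to poly(dA:dT) in siQ61K cells minus that in siNC cells) against the GC content of each gene's longest transcript, on deposited values (left) and after the GC and length correction (right); 1 symbol per tested gene. On the left the 13 called genes follow a downward slope except MANF, and on the right MANF is the 1 called gene.

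Other genes of the pathway, listed by role, are given as counts, to be read against all tested genes, of which 8.71% were called higher and 12.6% lower with poly(dA:dT), and 16.6% higher and 14.8% lower with DMSO. Of 21 further tested amino acid and ATF4-linked genes, 8 fell and 0 rose under knockdown with poly(dA:dT), and 6 fell and 4 rose with DMSO. Corrected for GC content and length, 7 fell and 0 rose with poly(dA:dT), and 8 fell and 3 rose with DMSO. Of all genes, 26.9% and 27.5% were then called either way in that order. GDF15, a secreted stress hormone, averaged 794 ± 195 TPM in siQ61K cells and 2446 ± 359 TPM in siNC cells with poly(dA:dT), and 1084 ± 61.7 TPM in siQ61K cells and 1756 ± 19.0 TPM in siNC cells with DMSO (SD, n = 3 each). Its log2 fold change was -1.64 (adjusted p = 8.25e-06) with poly(dA:dT) and -0.70 (adjusted p = 0.00356) with DMSO. VEGFA, an angiogenic factor that ATF4 can induce, changed by -1.01 (adjusted p = 0.000647) with poly(dA:dT) and -1.15 (adjusted p = 0.000221) with DMSO, and MTHFD1L, the mitochondrial formate-releasing partner of MTHFD2, by -0.66 (adjusted p = 0.00113) and -0.49 (adjusted p = 0.00524) in the same order. In siQ61K cells 9 of these 21 fell and 0 rose with poly(dA:dT) against DMSO, beside 18.3% of all genes called lower and 6.92% higher. With the GC and length correction this became 1 fall and 1 rise, beside 8.67% of all genes called either way. The interaction was lower for 5 and higher for 0, beside 12.1% of all genes called lower and 6% higher. With that correction it was 0 lower and 1 higher, beside 2.06% of all genes called either way. GPT2, a mitochondrial alanine transaminase, was among those that rose with DMSO, at 0.78 (adjusted p = 0.0013).

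The tRNA-charging genes that ATF4 is known to raise mostly did not pass. Of 13 such genes, AARS1 and XPOT, a tRNA export factor, fell with poly(dA:dT), at -0.79 (adjusted p = 0.00379) and -0.58 (adjusted p = 0.029), and XPOT fell with DMSO, at -0.76 (adjusted p = 0.00509). Of 8 other tRNA synthetases, 1 rose and 1 fell with poly(dA:dT), and 3 rose and 2 fell with DMSO. Over all tested genes 8.71% were called higher and 12.6% lower with poly(dA:dT), and 16.6% higher and 14.8% lower with DMSO.

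In a list of 16 eIF2 kinases and regulators, 3 rose and 3 fell with poly(dA:dT), against 8.71% higher and 12.6% lower over all tested genes. Not all of its genes act upstream of eIF2, since it also holds the transcription factors ATF5 and CEBPG and the cofactor NUPR1. With DMSO 1 rose and 3 fell, against 16.6% higher and 14.8% lower. NUPR1, a stress-induced chromatin cofactor, averaged 4.57 ± 0.320 TPM in siQ61K cells and 0.488 ± 0.199 TPM in siNC cells with poly(dA:dT), and 4.29 ± 0.691 TPM in siQ61K cells and 0.569 ± 0.301 TPM in siNC cells with DMSO (SD, n = 3 each). Its log2 fold change was 1.91 (adjusted p = 5.96e-05) with poly(dA:dT) and 1.77 (adjusted p = 0.000112) with DMSO. EIF2AK2 (PKR), the kinase for double-stranded RNA and an interferon-induced gene, averaged 31.0 ± 1.92 TPM in siQ61K cells and 15.9 ± 1.39 TPM in siNC cells with poly(dA:dT), and 9.47 ± 2.35 TPM in siQ61K cells and 13.3 ± 0.654 TPM in siNC cells with DMSO. Its interaction was 1.39 (adjusted p = 0.00587) and was kept once corrected for GC content and length (1.16, adjusted p = 0.00306). The log2 fold change for knockdown of EIF2AK3 (PERK) was -0.63 with poly(dA:dT) and 0.53 with DMSO. That of EIF2AK4 (GCN2), the sensor of uncharged tRNA, was 0.24 and -0.32 in that order. Neither gene was called for knockdown. Over the 16 genes the interaction ran from -1.17 to 1.39, with 2 called higher and 2 lower. Of all tested genes, 6% were called higher and 12.1% lower. With the GC and length correction 1 was called higher and 0 lower, beside 2.06% of all genes called either way.

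Within the ER, further UPR transducers and disposal and folding genes were called in both directions, where all tested genes had 8.71% called higher and 12.6% lower with poly(dA:dT), and 16.6% higher and 14.8% lower with DMSO. Of 5 other transducers, CREB3L2, an ER-anchored transcription factor, fell with poly(dA:dT), at -0.94 (adjusted p = 0.00175), and with DMSO, at -0.82 (adjusted p = 0.00299), and ATF6B, MBTPS1 and CREB3 rose with DMSO. Of 12 tested ER-associated degradation genes, none was called with poly(dA:dT) by limma (2 at an unadjusted p under 0.05), and 3 rose and 3 fell with DMSO. Of 13 translocon genes, 3 rose with poly(dA:dT), and 2 rose and 4 fell with DMSO. SEC61G, a small subunit of the channel, had the largest of these, at -1.38 (adjusted p = 8.41e-05) with DMSO and an interaction of 1.89 (adjusted p = 0.00136). Of 14 other ER folding genes, 1 rose and 1 fell with poly(dA:dT), and 3 rose and 1 fell with DMSO.

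Of 14 NRF2 target genes, which answer to oxidative stress, 5 rose and 0 fell with poly(dA:dT), against 8.71% higher and 12.6% lower over all tested genes. With DMSO 8 rose and 2 fell, against 16.6% higher and 14.8% lower. Their median log2 fold change with DMSO was 0.50 on deposited values and 0.14 on corrected ones, and with poly(dA:dT) it was 0.16 and 0.24 in that order. HMOX1, a heme oxygenase, averaged 16.9 ± 5.61 TPM in siQ61K cells and 7.12 ± 3.05 TPM in siNC cells with poly(dA:dT), and 27.0 ± 2.92 TPM in siQ61K cells and 5.53 ± 0.853 TPM in siNC cells with DMSO (SD, n = 3 each). Of 11 cytosolic heat shock genes, 1 rose and 2 fell with poly(dA:dT), and 2 rose and 5 fell with DMSO. No test set one list against another.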

How the data were processed

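Total RNA of 12 HT1080 libraries was prepared with the NEBNext Ultra RNA kit and sequenced on a NovaSeq, per the labels' protocols. The deposited table holds TPM per gene symbol, which the authors made with Salmon 0.8.0 and hg19, per the submitters' processing notes; the annotation, the summing to genes and the strand setting are not stated. TPM keeps no read depth, so the depth behind each value is unknown. Columns were matched to groups by name, reading NC as siNC, SI as siQ61K and PD as poly(dA:dT), which is an inference. Symbols listed more than 1 time (58 symbols, 984 of 56227 entries) were left out, and genes that reached 1 TPM in 3 or more libraries were kept (14722). Values were tested as log2(TPM + 1) with limma 3.58.1 in R 4.3.3, with a variance trend, all 12 libraries in a single fit and Benjamini-Hochberg adjustment over all 14722 genes. Every adjusted p in the text comes from such a limma fit. The libraries of a group may be technical repeats, so a p-value speaks of the spread between libraries and not between cultures.

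The members and the other gene lists were chosen with earlier results of these data known. All 12 values are given for 6 fixed regulators and for up to 4 called genes of each set with the largest fold change in each comparison. Alternatives covered the pseudocount, the filter, median-of-ratios and quantile scaling, a lowess correction (span 0.3) for GC content and log2 length of the longest GENCODE 29 transcript (14671 genes), the replicate number as a block, the variance trend, the libraries in the fit, and leaving out each library. The scripts were checked on simulated data.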

Additional observations from a re-analysis of the deposited data

Results flagged for a closer look

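For 13 of the 39 tested genes (33.3%) the response to poly(dA:dT) was called different in siQ61K and siNC cells, against 18.1% of all tested genes. The call is a test of the difference itself, the interaction in limma. Of these 13 calls, 0 were kept under every alternative run. The interaction is the log2 response in siQ61K cells minus that in siNC cells. Among genes of the unfolded protein response it was 0.90 for MANF (adjusted p = 0.015), 0.87 for DNAJB9 (adjusted p = 0.0296), 0.74 for HSP90B1 (adjusted p = 0.0153), -0.54 for HYOU1 (adjusted p = 0.0396) and -0.75 for CRELD2 (adjusted p = 0.021). Among genes of the ATF4 response it was -1.20 for CEBPB (adjusted p = 0.00781), -1.01 for PPP1R15A (adjusted p = 0.023), -0.97 for DDIT4 (adjusted p = 0.0168), -0.90 for SHMT2 (adjusted p = 0.0202), -0.88 for SLC7A5 (adjusted p = 0.0196), -0.85 for SESN2 (adjusted p = 0.0256), -0.64 for SLC3A2 (adjusted p = 0.017) and -0.52 for ATF4 (adjusted p = 0.02). Over the 39 genes the interaction and GC content had a Spearman's rho of -0.836, and after the GC and length correction MANF was the 1 gene called (adjusted p = 0.0378).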

How the results depend on the processing

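Counts of the 39 genes called were within 1.5 times of the reported 12 with DMSO and 18 with poly(dA:dT) for knockdown under every alternative that did not leave out a single library. For poly(dA:dT) against DMSO in siQ61K cells, the count of 12 became 4 with the GC and length correction, 4 with that correction and the replicate number as a block, and 0 without siQ61K DMSO library 3 and siQ61K poly(dA:dT) library 2 together. Over all genes the count of 3712 became 2328 without a filter, 1272 with the correction, 1071 with correction and block, 2207 with only the groups compared and 137 without those 2 libraries. For the interaction, the count of 13 became 5 without a filter, 1 with the correction, 1 with correction and block, and 1 without those 2 libraries. Over all genes the interaction count of 2662 became 1026, 302, 212 and 550 in that order. For poly(dA:dT) in siNC cells, 18 genes of all became 30 with the correction and 28 with correction and block. Knockdown with DMSO had the sign of SLC7A5 turn to -0.35 with the correction, and to -0.35 with correction and block, and that of SLC3A2 to -0.29 with the correction. The cause of these changes was not tested.

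With 1 library left out at a time, 9 to 16 of the 39 genes were called for knockdown with DMSO (3045 to 4998 of all genes) and 10 to 21 for knockdown with poly(dA:dT) (2108 to 3750 of all genes). For poly(dA:dT) against DMSO 6 to 16 were called in siQ61K cells (1628 to 4608 of all genes) and 0 to 0 in siNC cells (7 to 37 of all genes), and for the interaction 5 to 17 (980 to 3886 of all genes). Of 18 pairs of libraries that share a replicate number, 3 had a correlation of their deviations over 0.1 (range -0.26 to 0.233). With 3 libraries per group this cannot exclude a pairing by number. The replicate block alone gave 13 and 17 calls for knockdown with DMSO and poly(dA:dT), 10 and 0 for poly(dA:dT) in siQ61K and siNC cells, and 12 for the interaction. A fit on only the groups compared cannot give the interaction.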
